A study of Danio rerio with 9 samples.

Results

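Heterozygous npc2 zebrafish embryos were set against the additive line between wild-type and homozygous embryos, gene by gene. The members are all 9 of the 9 libraries of the series: 3 heterozygous libraries form one side of the contrast, and the mean of the wild-type and homozygous levels on the log2 scale, here called the midpoint, forms the other. A gene whose mRNA follows the number of intact npc2 copies in equal multiplicative steps lies on this line. The contrast finds the genes that do not, and a second test, described below, finds those whose heterozygous level lies outside the range of both other genotypes.

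NPC2 is a small soluble protein of the lysosome that takes up cholesterol released there and passes it to the membrane protein NPC1, which moves it out of the lysosome. When this export fails, cholesterol stays in the lysosome and the endoplasmic reticulum senses too little of it, so that the transcription factor SREBP-2 switches on the genes of cholesterol synthesis and uptake. Most loss-of-function mutations of enzymes and transporters are recessive, since a single intact copy supplies enough protein, and expression that responds to the function of the pathway need not follow the number of gene copies. Early zebrafish embryos also carry mRNA and protein laid down in the egg, so the genotype of the mother can matter as well as that of the embryo.

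Polyadenylated RNA was sequenced from pools of 30 whole embryos at 30 hours post fertilisation, with 3 separate pools for each of 3 genotypes: npc2+/+ (wild type), Mnpc2+/m (heterozygous, from a mutant mother) and MZnpc2m/m (homozygous, lacking intact npc2 from the mother and in the embryo). Heterozygous and homozygous embryos were siblings of the same crosses and were separated by their phenotype, whereas the wild-type embryos were from separate matings, of fish that were wild-type brothers and sisters of the mutants' parents. Wild-type embryos therefore differ from the others in mother and clutch as well as in genotype, and these cannot be told apart. Nothing in the labels says that the pools of a genotype came from different crosses, so a p-value reflects only how far these pools scatter, which may be technical. Total counts ran from 38564405 to 69360234 per library, and levels are given as CPM (counts scaled to library size), in which 3 counts correspond to 0.0428 to 0.0777 CPM. In whole-embryo RNA, fewer cells of a type and less RNA per cell cannot be told apart.

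The mutated gene itself lay close to the additive line when the line was drawn on the linear scale and above it on the log2 scale. NPC2 (ENSDARG00000090912) stood at 264, 256 and 278 CPM in wild-type replicates 1 to 3, at 144, 146 and 142 CPM in heterozygous pools and at 34.1, 32.6 and 44.3 CPM in homozygous pools. The 3 genotypes did not overlap, and homozygous replicate 3 was the highest of its group. The heterozygous level was 0.54 ± 0.08 log2 units above the midpoint, where the value after ± is a standard error (adjusted p = 0.00052, edgeR's quasi-likelihood test). Against the arithmetic mean of the wild-type and homozygous levels the deviation was -0.07 and did not pass (adjusted p = 0.58), so for this gene the scale decided the call and turned its sign. A second ID named NPC2 (ENSDARG00000096979) held 0.869 to 2.28 CPM in all libraries and did not pass the midpoint test (-0.11 ± 0.22, adjusted p = 0.73). NPC1, the partner of NPC2, stood at 202, 195 and 195 CPM in wild-type, 227, 234 and 217 CPM in heterozygous and 285, 276 and 270.0 CPM in homozygous pools. Its levels rose in order without overlap, and the heterozygous deviation of -0.05 ± 0.04 did not pass the midpoint test (adjusted p = 0.37).

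Of 20375 genes tested, 6863 (33.7%) lay off the midpoint at an adjusted p under 0.05 in edgeR's quasi-likelihood test. Above the midpoint were 3405 genes (16.7%) and below it 3458 (17%), and the median deviation over all genes was -0.0059 log2 units. Most deviations were small, with a median size of 0.32 log2 units among the genes called. Larger deviations were more often downward: 387 genes lay at least 1.5-fold above the midpoint and 864 at least 1.5-fold below it, and at 2-fold the counts were 130 and 318. For comparison, the homozygous and wild-type pools differed in 9076 genes (44.5%), of which 4783 (23.5%) were higher and 4293 (21.1%) lower in homozygous pools. Heterozygous pools differed from wild type in 6079 genes (29.8%) and from homozygous pools in 8101 (39.8%). With equal groups the midpoint contrast is close to orthogonal to the difference between homozygous and wild type. It was called in 4142 (45.6%) of the 9076 genes with such a difference and in 2721 (24.1%) of the 11299 without. Both tests use the same counts and the same estimate of spread per gene, so genes with little scatter pass both more readily.

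A deviation from the midpoint can arise with the heterozygous level between both other genotypes or outside their range, and the genes were divided by this. For the second case the heterozygous pools had to differ in the same direction from wild type and from homozygous pools, taking the larger of both p-values and adjusting over all genes. Unless stated otherwise, the deviation and adjusted p-value given with a single gene are those of the midpoint contrast. Above both genotypes were 876 genes (4.3% of those tested) and below both 627 (3.08%). The median distance from the nearer genotype was 0.29 log2 units for the first and 0.38 for the second. At least 1.5-fold from the nearer genotype were 37 genes above and 132 below, and at least 2-fold 5 above and 35 below. In 872 of the 876 and 623 of the 627 the 3 heterozygous libraries did not overlap the other 6, while over all genes tested the heterozygous libraries stood entirely above the other 6 in 9.59% and entirely below in 8.21%. The separation follows largely from the test that chose these genes in the same libraries, and gives the calls no further support. Between both genotypes, with a called difference between homozygous and wild type, lay 1040 genes off the midpoint: 774 were nearer to wild type and 266 nearer to homozygous. The other 4320 genes off the midpoint had a fitted heterozygous level outside the range of both genotypes without passing the second test.

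**Figure D1:**
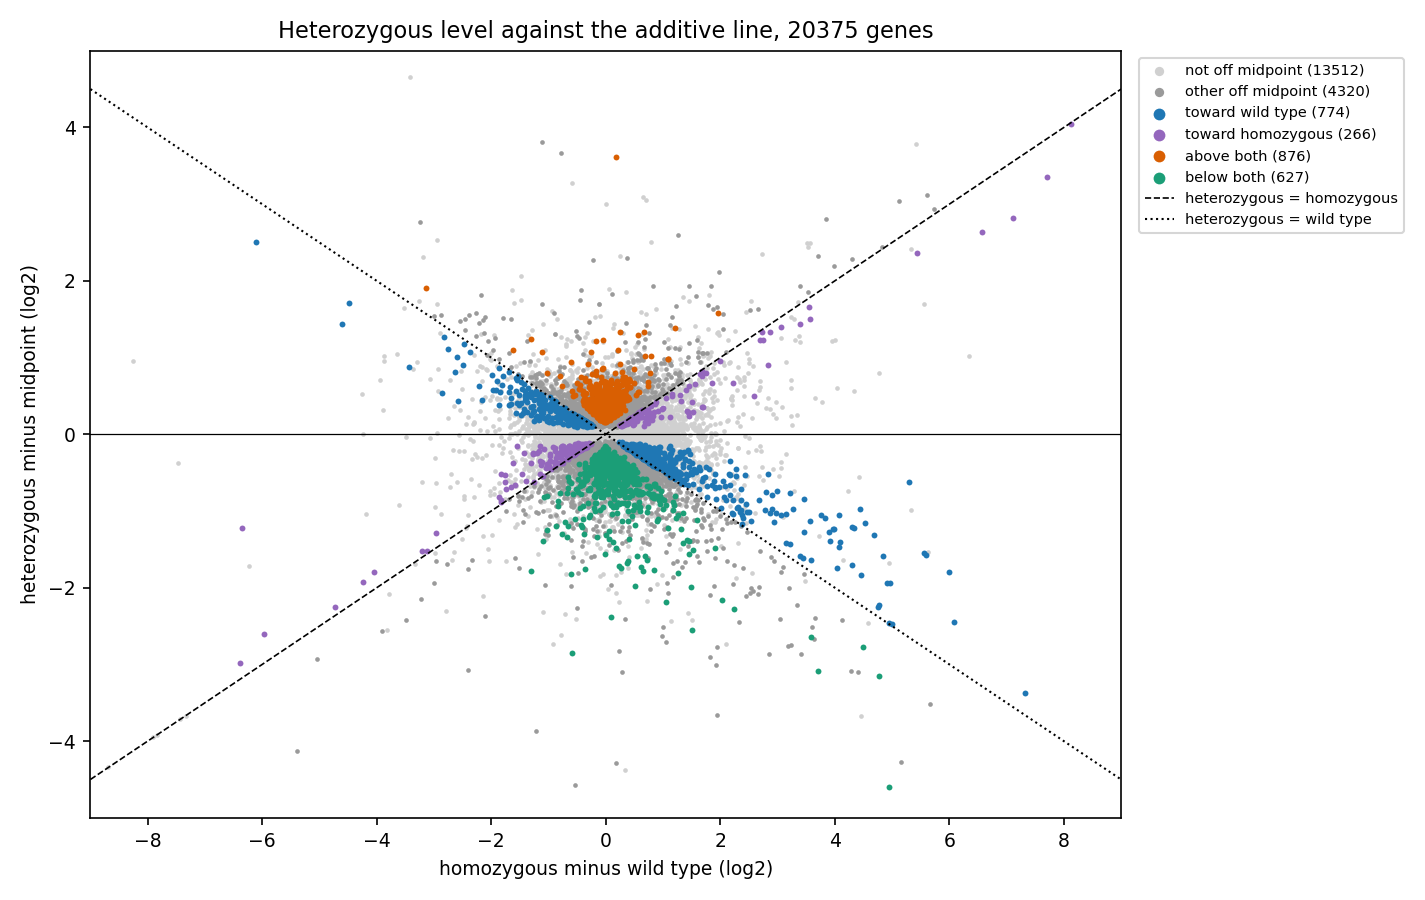
Each point is a gene; the horizontal axis is the homozygous minus wild-type difference and the vertical axis the heterozygous deviation from the midpoint, both in log2 units, with colours for the position of the heterozygous level. The dashed line marks heterozygous pools equal to homozygous and the dotted line equal to wild type; 876 genes stand above both genotypes and 627 below both, and 8 genes lie beyond the axes.

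For genes with a called homozygous difference of at least 2-fold, the place of the heterozygous pools between wild type (0) and homozygous (1) was computed on the log2 scale, as a description, since this position shares its wild-type pools with the difference that chose the genes. For the 984 genes higher in homozygous pools the median position was 0.29, with quartiles at 0.059 and 0.65. The 575 genes lower in homozygous pools had a median of 0.42 and quartiles at 0.18 and 0.77. Among the higher genes 370 lay below the midpoint, 95 above it and 519 did not pass. Among the lower genes 157 lay above the midpoint, 90 below it and 328 did not pass. In both directions heterozygous pools were called on the wild-type side of the log2 midpoint more often than on the homozygous side. The arithmetic mean lies above the log2 midpoint, on the wild-type side for the lower genes and on the homozygous side for the higher ones. Equal steps in counts would thus also place the lower genes nearer to wild type, so their position depends on the scale.

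**Figure D2:**
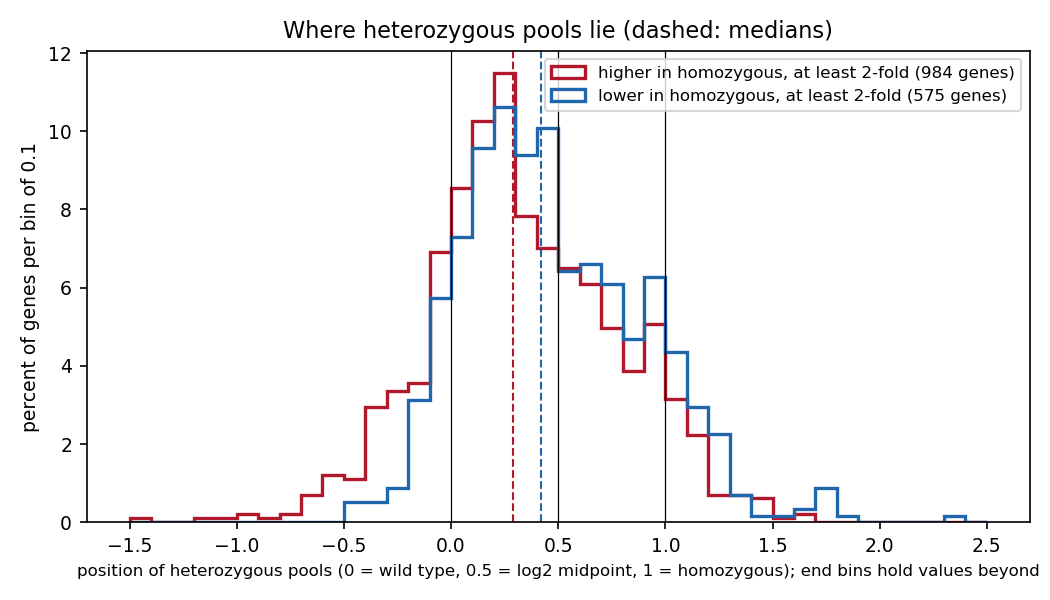
The horizontal axis is the position of heterozygous pools between wild type (0) and homozygous (1) on the log2 scale and the vertical axis the percent of genes per bin, for genes at least 2-fold higher (984) or lower (575) in homozygous pools. Dashed lines mark the medians, 0.29 and 0.42, both on the wild-type side of the midpoint at 0.5. For the lower genes a level at the arithmetic mean also lies on that side.

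Among the lists, the largest share of members nearer to wild type was in cholesterol synthesis (20 of 24, against 3.8% of all genes), the pathway that makes cholesterol from acetyl-CoA. Of 24 members tested from a list of 28 entries, 20 lay below the midpoint (83.3%, against 17% of all genes) and 1 above, with a median deviation of -1.11 log2 units. The median member was 3.43 log2 units higher in homozygous than in wild-type pools and 0.56 higher in heterozygous pools. Among the 21 members with a called rise in homozygous pools, the median position of heterozygous pools was 0.19. HMGCS1, which makes HMG-CoA, stood at 33.9, 33 and 36.9 CPM in wild-type, 73.2, 75.3 and 76 CPM in heterozygous and 824, 834 and 748 CPM in homozygous pools. All 3 genotypes were apart, and the heterozygous pools lay 1.15 ± 0.05 log2 units under the midpoint (deviation -1.15, adjusted p = 5.3e-11). LSS, the cyclase that forms lanosterol, held 5.23, 3.92 and 4.65 CPM in wild-type, 6.27, 5.1 and 6.48 CPM in heterozygous and 103, 99.4 and 95.9 CPM in homozygous pools. Heterozygous and wild-type pools overlapped there, far from the homozygous pools, and the deviation was -1.84 ± 0.09 (adjusted p = 1.3e-09). FDPS, the farnesyl diphosphate synthase, deviated by -0.98 ± 0.04 (adjusted p = 4.9e-11).

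DHCR7, the reductase of the last step of cholesterol synthesis, was the 1 of these 21 members whose fitted heterozygous level was under wild type (-0.15 log2 units, adjusted p = 0.058). It stood at 27.7, 25.4 and 25.1 CPM in wild-type, 22.4, 23.5 and 24.3 CPM in heterozygous and 195, 201 and 182 CPM in homozygous pools. The heterozygous pools were the lowest, although the difference from wild type did not pass, and the deviation from the midpoint was -1.60 ± 0.05 (adjusted p = 5.4e-12). The 1 member above the midpoint was LBR, a sterol reductase and nuclear membrane protein, at 244 to 254 CPM in wild-type, 239 to 255 CPM in heterozygous and 197 to 200.1 CPM in homozygous pools. LBR was chosen for mention after its values were seen.

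The regulators and other targets of SREBP lay mostly on the same side, whereas genes of cholesterol export had as many members called above as below. Of 21 SREBP regulators and targets tested, 11 lay below the midpoint (52.4%, against 17% of all genes) and 1 above (4.76%), with a median of -0.49. srebf2, which encodes SREBP-2, stood at 120.3, 124 and 103 CPM in wild-type, 111, 119 and 114 CPM in heterozygous and 563, 576 and 531 CPM in homozygous pools. Heterozygous pools lay within the wild-type range, and the deviation was -1.15 ± 0.05 (adjusted p = 4.3e-10). ldlrb, a lipoprotein receptor that brings cholesterol into cells, was intermediate, at 58, 60.8 and 55.6 CPM, then 90.1, 86.1 and 80.7 CPM, then 272, 267 and 246 CPM in the same order of genotypes, with a deviation of -0.53 ± 0.05 (adjusted p = 4.3e-07). The 1 member above was SCAP, the escort protein of SREBP, at 17.5 to 22.3 CPM in wild-type, 28.1 to 30.3 CPM in heterozygous and 22.7 to 24.7 CPM in homozygous pools. Its deviation from the midpoint was 0.41 ± 0.07 (adjusted p = 0.00014). In the test outside both genotypes it was called above both (adjusted p = 0.027). SCAP was named after its value was seen. Of 30 genes of cholesterol export and esterification 7 lay above and 7 below (23.3% each, against 16.7% and 17% of all genes). Their median was 0.02, and 16 did not pass. On the linear scale 5 lay above and 7 below. The mutated gene, NPC2 (ENSDARG00000090912), is a member and was among those above on the log2 scale. The median position of heterozygous pools was 0.32 for the 7 members called higher in homozygous pools and 0.20 for the 11 called lower. ABCA1 (ENSDARG00000074635), which loads cholesterol onto lipoproteins, held 68, 69.9 and 62.9 CPM in wild-type, 88.2, 86.2 and 78.4 CPM in heterozygous and 6.98, 6.79 and 9.21 CPM in homozygous pools. Its heterozygous level was the highest of the 3 without overlap, at 1.91 ± 0.07 above the midpoint (adjusted p = 1.3e-09), and the call above both genotypes (adjusted p = 0.029) was lost in 6 of 17 alternative settings. SOAT2, which esterifies cholesterol, stood at 21.8, 20.8 and 21.7 CPM in wild-type, 14.9, 15.3 and 13.8 CPM in heterozygous and 0.0571, 0.236 and 0.795 CPM in homozygous pools. The genotypes were apart, and the deviation of 2.51 ± 0.31 on the log2 scale (adjusted p = 0.0011) did not pass against the arithmetic mean (0.43, adjusted p = 0.32). It did without homozygous replicate 3 (0.43, adjusted p = 0.0058), but that library was left out as the highest of its group.

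Outside the cholesterol lists, the genes chosen by size of deviation among those nearer to wild type were arf4b, CYB5R2 and CARTPT. arf4b, a small GTPase of membrane traffic, held 0.518, 0.501 and 0.441 CPM in wild-type, 0.433, 0.743 and 0.615 CPM in heterozygous and 80.6, 89.8 and 63.1 CPM in homozygous pools. Only homozygous pools held more than 1 CPM, and the deviation was -3.37 ± 0.26 (adjusted p = 7.1e-06). CYB5R2, a cytochrome b5 reductase, held 1 to 1.4 CPM in wild-type, 1.16 to 1.36 CPM in heterozygous and 30.2 to 31.3 CPM in homozygous pools, a deviation of -2.25 ± 0.11 (adjusted p = 2.1e-10). CARTPT (ENSDARG00000035852), a neuropeptide precursor, held 1.25 to 1.36 CPM, 1.08 to 1.77 CPM and 14.5 to 16.3 CPM in the same order (-1.63 ± 0.13, adjusted p = 8.8e-08). In all 3 genes wild-type and heterozygous pools overlapped.

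**Figure D3:**
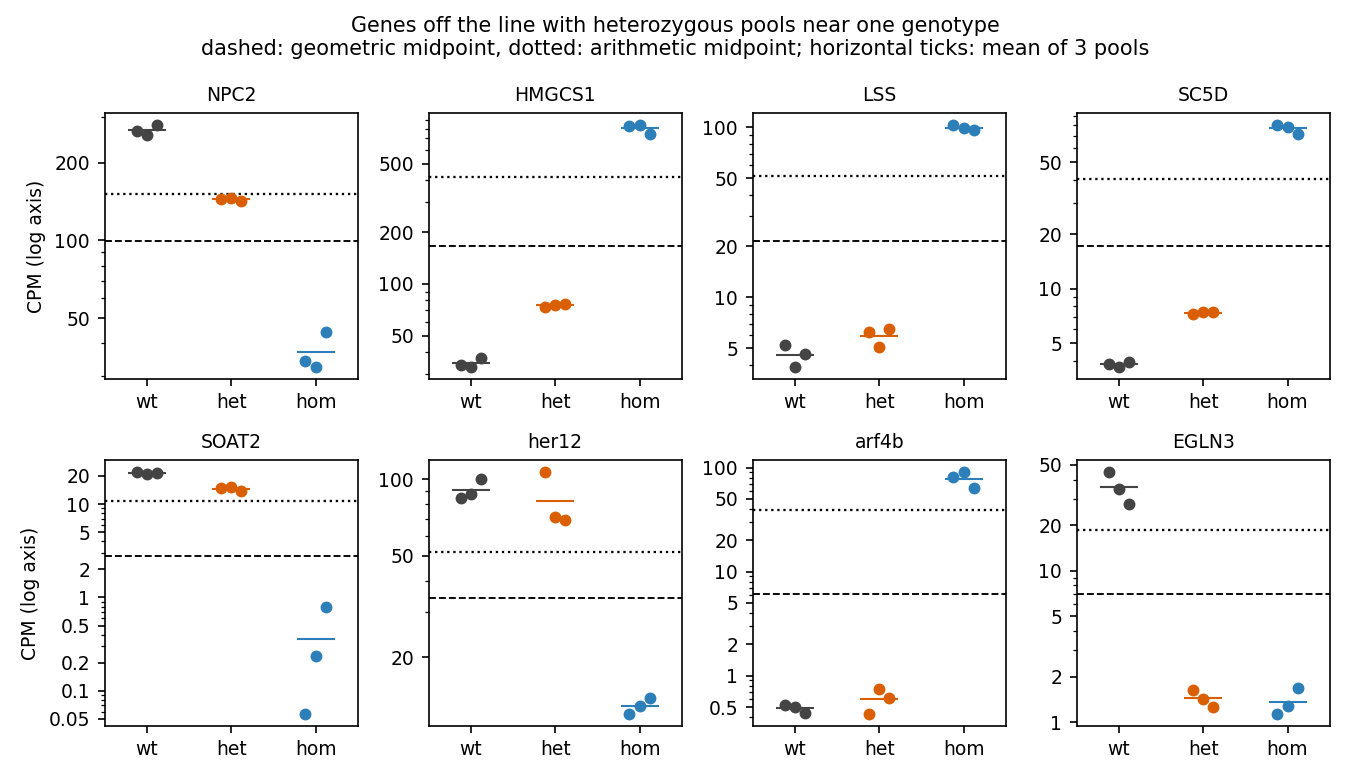
CPM on a log axis in wild-type (wt), heterozygous (het) and homozygous (hom) pools, with 1 point per pool, a horizontal tick at the mean, a dashed line at the geometric and a dotted line at the arithmetic midpoint. NPC2 (ENSDARG00000090912; 264, 256 and 278, then 144, 146 and 142, then 34.1, 32.6 and 44.3 CPM) is near the dotted line, LSS and arf4b heterozygous pools sit at the wild-type level, and those of EGLN3 at the homozygous level.

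Inflammatory genes lay below the midpoint, with high homozygous pools and heterozygous pools near or under wild type. Of 31 cytokine and inflammation genes tested, 25 lay below (80.6%, against 17% of all genes) and 0 above in edgeR's test at an adjusted p under 0.05. The median was -1.03, and 7 lay below both genotypes (3.08% of all genes did). The median member was 1.55 log2 units higher in homozygous than in wild-type pools and -0.33 in heterozygous against wild-type pools. SOCS3 (ENSDARG00000026611), the feedback inhibitor of cytokine signalling, held 14.2, 14.2 and 12.1 CPM in wild-type, 11.1, 12.3 and 12.6 CPM in heterozygous and 92.3, 88.9 and 80.1 CPM in homozygous pools. Wild-type and heterozygous pools overlapped, and the deviation was -1.52 ± 0.07 (adjusted p = 1.3e-10). CEBPB, a transcription factor of the acute phase, stood at 57, 63 and 59.4 CPM in wild-type, 47.4, 43.1 and 42.3 CPM in heterozygous and 118, 123 and 106 CPM in homozygous pools. The heterozygous pools were the lowest, with a deviation from the midpoint of -0.91 ± 0.06 (adjusted p = 3.9e-09). They were below both genotypes (adjusted p = 0.00036 in the test outside both). STAT3, the transcription factor downstream of these receptors, deviated by -0.85 ± 0.04 (adjusted p = 6.3e-10). Over 31 myeloid markers 9 lay below (29%) and 0 above, but the median was 0.03, with 16 members positive, 15 negative and 22 not passing. Their part in the cytokine result was not tested. MMP9, a protease of leukocytes, ranged widely at 4.61, 22.2 and 10.21 CPM in wild-type, 4.79, 8.1 and 7.09 CPM in heterozygous and 264, 283 and 202 CPM in homozygous pools.

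The same direction held among immediate early genes, which answer growth and stress signals within minutes. Of 37 tested, 22 lay below (59.5%, against 17% of all genes) and 1, MYC (ENSDARG00000007241), above. The median was -0.41, and 7 lay below both genotypes (3.08% of all genes did). JUN, a subunit of the AP-1 factor, stood at 128, 129 and 132 CPM in wild-type, 103, 98 and 101 CPM in heterozygous and 231, 229 and 222 CPM in homozygous pools. Heterozygous pools were the lowest without overlap (-0.77 ± 0.04, adjusted p = 3.3e-10). FOS, its partner, held 34.6, 44.8 and 37.7 CPM, then 19.6, 17.6 and 11.3 CPM, then 77, 62.1 and 54.7 CPM. Its deviation was -1.63 ± 0.22 (adjusted p = 0.0016), and its call below both genotypes (adjusted p = 0.0268) was lost in 5 of 17 settings. FOSL2, another AP-1 subunit, overlapped between wild-type and heterozygous pools, at 11.1, 12 and 12.5 CPM in wild-type, 11.9, 12.7 and 11.4 CPM in heterozygous and 63.1, 65.7 and 55.7 CPM in homozygous pools (-1.17 ± 0.07, adjusted p = 1.3e-09).

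Genes of the unfolded protein and amino acid stress responses followed, with 19 of 33 below the midpoint (57.6%, against 17% of all genes) and 1 above. Their median was -0.20, and 5 lay below both genotypes (3.08% of all genes did). ppp1r15a, which returns translation after stress by dephosphorylating eIF2alpha, held 81, 71.4 and 62.1 CPM in wild-type, 23.6, 22.2 and 21.4 CPM in heterozygous and 44.3, 47.2 and 42.9 CPM in homozygous pools. Heterozygous pools were the lowest by a wide margin (-1.34 ± 0.07, adjusted p = 9.2e-09). HERPUD1, a part of endoplasmic reticulum quality control, held 32.6, 32.4 and 31.9 CPM, then 23.8, 24.4 and 22.1 CPM, then 47.6, 48 and 43.5 CPM (-0.72 ± 0.05, adjusted p = 2.5e-08). DDIT3, the stress factor CHOP, was in contrast near wild type in heterozygous pools, at 14.1, 14.4 and 14.3 CPM, then 17, 15.4 and 16.4 CPM, then 61.6, 66.1 and 55.1 CPM (-0.86 ± 0.06, adjusted p = 2.1e-08).

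Fewer lysosomal genes were called. Of 58 lysosomal genes tested, 23 lay below the midpoint (39.7%, against 17% of all genes) and 4 above, with a median of -0.14, although 33 were higher in homozygous than in wild-type pools. scarb2a, a lysosomal membrane protein, held 219.5, 218 and 212 CPM in wild-type, 246, 269.9 and 234 CPM in heterozygous and 1112, 1137 and 969 CPM in homozygous pools. The heterozygous pools lay just above wild type (-0.95 ± 0.05, adjusted p = 9.7e-09). ctsla, a cathepsin, was nearer to the line, with means of 838 ± 43.3 CPM (SD, n = 3), 1151 ± 11.0 CPM (SD, n = 3) and 2166 ± 21.0 CPM (SD, n = 3) in wild-type, heterozygous and homozygous pools and a deviation of -0.23 ± 0.04 (adjusted p = 0.00011). Of 19 subunits of the V-ATPase, the pump that acidifies the lysosome, 8 lay below (42.1%) and 0 above. Of 27 autophagy genes 15 lay below (55.6%) and 0 above, with a median of -0.22, and 4 lay below both genotypes (3.08% of all genes did). Among these, WIPI1, which acts in forming the autophagosome, held 38.5, 34.6 and 36.2 CPM, then 30.0, 31.8 and 30.9 CPM, then 60.9, 57.5 and 59.7 CPM (-0.59 ± 0.05, adjusted p = 1.4e-07), with the call below both lost in 2 of 17 settings.

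Targets of Notch, the receptor that keeps neural progenitors from differentiating, formed the reverse case, low in homozygous pools with heterozygous pools nearer to wild type. Of 16 tested, 14 lay above the midpoint (87.5%, against 16.7% of all genes) and 0 below, with a median of 0.81 log2 units, and 11 did so on the linear scale. The median member was -1.89 log2 units in homozygous and -0.02 in heterozygous against wild-type pools. NRARP (ENSDARG00000018958), a feedback inhibitor of Notch, held 143, 142 and 142 CPM in wild-type, 146, 136 and 122 CPM in heterozygous and 55.6, 57 and 53.4 CPM in homozygous pools. Wild-type and heterozygous pools overlapped (0.60 ± 0.05, adjusted p = 1.1e-07). HEY1, a repressor switched on by Notch, was partly lower already in heterozygous pools, at 57.4, 54.2 and 53 CPM, then 46.9, 42.5 and 37.2 CPM, then 13.9, 14.5 and 15.4 CPM (0.58 ± 0.06, adjusted p = 3.2e-06). her8a, a repressor of the same family, was also lower than wild type in heterozygous pools (-0.26 log2 units, adjusted p = 0.035), at 110.4, 108 and 105 CPM, then 89.2, 91.1 and 88.5 CPM, then 28.9, 26.5 and 36.4 CPM. Other her genes, fish relatives of the Hes repressors, varied more among pools. her12, outside the naming rule and chosen after its values were seen, held 84.2, 87.6 and 100.3 CPM in wild-type, 106, 71.4 and 69.2 CPM in heterozygous and 12, 12.8 and 13.8 CPM in homozygous pools. Near-identical copies such as her4.1 to her4.5 and her15.1 and her15.2 share reads and are uncertain one by one. These copies are all among the 14 called above the midpoint, which are therefore not 14 separate members. Of 30 Notch ligands, receptors and other components 7 lay above and 9 below the midpoint (23.3% and 30%, against 16.7% and 17% of all genes). Among them, dlb, a ligand made by new neurons, held 314, 316 and 311 CPM, then 291, 298 and 289 CPM, then 589, 581 and 537 CPM (-0.53 ± 0.04, adjusted p = 2.6e-08).

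Markers of neural cell types also lay off the midpoint. Of 26 neural progenitor markers 12 lay above the midpoint (46.2%, against 16.7% of all genes) and 3 below, with a median of 0.13. SOX3, a progenitor factor, held 394, 376 and 395 CPM in wild-type, 391, 373 and 351 CPM in heterozygous and 139, 136 and 158 CPM in homozygous pools (0.65 ± 0.05, adjusted p = 2.8e-08). VIM (ENSDARG00000010008), an intermediate filament of radial glia, went the other way, at 237, 227 and 249 CPM, then 183, 173 and 187 CPM, then 254, 267 and 269.8 CPM. Its heterozygous pools were below both genotypes (adjusted p = 8.2e-05 in the test outside both), with a deviation from the midpoint of -0.47 ± 0.04 (adjusted p = 3.9e-07). The others below the midpoint were FABP7 (ENSDARG00000007697, -0.13 ± 0.04, adjusted p = 0.016) and a second VIM ID (ENSDARG00000044501), chosen for mention after their values were seen. Of 48 neuron markers 37 lay below (77.1%, against 17% of all genes) and 1, STMN1 (ENSDARG00000004169), above. The median was -0.31, and 13 lay below both genotypes (3.08% of all genes did). The median neuron marker was 0.36 log2 units higher in homozygous and -0.17 in heterozygous against wild-type pools. nefma, a neurofilament, held 39.3, 37.6 and 39.3 CPM, then 34.2, 33.2 and 33.5 CPM, then 89.8, 92.6 and 85.5 CPM. Heterozygous pools were the lowest (-0.81 ± 0.05, adjusted p = 1.3e-09), with the call below both lost in 2 of 17 settings. neurog1, which starts neuron formation, was lower in both mutant groups, at 73.6, 70.6 and 69.1 CPM in wild-type, 35.3, 31.9 and 32.1 CPM in heterozygous and 44.6, 42.2 and 47.3 CPM in homozygous pools. Its heterozygous level was below both genotypes (adjusted p = 0.000235 in the test outside both), with a deviation from the midpoint of -0.77 ± 0.05 (adjusted p = 1.3e-08). The part of cell composition in the Notch result was not tested.

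Of the genes with a fitted level between both genotypes, fewer were nearer to the homozygous level, among them several prolyl hydroxylases. Levels just past the homozygous one are not counted among these. EGLN3, a prolyl hydroxylase that marks the hypoxia factor HIF for degradation and is itself induced by HIF, held 44.6, 34.7 and 27.5 CPM in wild-type, 1.64, 1.42 and 1.27 CPM in heterozygous and 1.14, 1.29 and 1.68 CPM in homozygous pools. Both mutant groups overlapped, far below wild type (-2.25 ± 0.20, adjusted p = 3e-05). P4HA2, a collagen prolyl hydroxylase, held 74.1, 63.1 and 63 CPM, then 19, 19.4 and 21 CPM, then 18.1, 16.3 and 20.6 CPM (-0.82 ± 0.08, adjusted p = 1.4e-06). Its relative P4HA1 held 22.5, 9.62 and 15.4 CPM in wild-type, 1.61, 1.76 and 2.03 CPM in heterozygous and 1.85, 1.04 and 2.27 CPM in homozygous pools. The wild-type pools of P4HA1 spread widely, and its deviation of -1.52 ± 0.37 (adjusted p = 0.02) did not pass with limma-voom (adjusted p = 0.102) nor without any 1 of the heterozygous libraries (adjusted p of 0.0557 to 0.0788). Across 41 hypoxia response genes tested, 21 lay below (51.2%, against 17% of all genes) and 5 above (12.2%, against 16.7%). Their median was -0.26, and 5 were nearer to the homozygous level (1.31% of all genes were). Since all mutant pools share their crosses and wild-type pools do not, clutch and genotype cannot be told apart in this group.

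Other genes at the homozygous level, by the same rule, were map1lc3cl, cry-dash and GUF1. map1lc3cl, a relative of the autophagosome protein LC3, held 14.7, 10.9 and 12.1 CPM, then 3.71, 3.65 and 3.66 CPM, then 3.42, 3.55 and 3.6 CPM (-0.85 ± 0.10, adjusted p = 5.7e-06). GUF1, a mitochondrial translation factor, held 38.5, 41.6 and 44.5 CPM, then 14, 14.3 and 15.06 CPM, then 13.2, 12.3 and 14 CPM (-0.69 ± 0.06, adjusted p = 3.8e-07). cry-dash, a light-sensing flavoprotein of the photolyase family, was higher in both mutant groups, at 11.4, 10.8 and 10.6 CPM, then 32.3, 36.1 and 36.4 CPM, then 36.1, 36.7 and 37.6 CPM (0.80 ± 0.05, adjusted p = 6.7e-09). In each, wild-type pools stood apart from all 6 mutant pools.

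Light-induced and clock genes held members in both directions, and 21 of 39 did not pass. Above the midpoint lay 10 (25.6%, against 16.7% of all genes) and below it 8 (20.5%, against 17%), with a median of 0.01. Above both genotypes lay 5 and below both 3, where all genes gave 4.3% and 3.08%. cry5, a photolyase that repairs ultraviolet damage and is induced by light in fish, held 3.57, 3.27 and 3.16 CPM in wild-type, 18.9, 19.8 and 20.4 CPM in heterozygous and 13.1, 12.4 and 13.4 CPM in homozygous pools. The genotypes were fully apart with heterozygous pools highest (1.59 ± 0.07, adjusted p = 5.3e-11). PER2, a clock repressor that light induces in zebrafish cells, followed the same order at 27.6, 28.5 and 24.4 CPM, then 83.1, 76.3 and 72.5 CPM, then 55.9, 56.5 and 57.8 CPM (0.99 ± 0.05, adjusted p = 8.8e-10). CRY1 (ENSDARG00000045768), another clock repressor, held 23.9, 23.2 and 22.9 CPM, then 65.5, 68.9 and 66.4 CPM, then 48.9, 51.5 and 47.7 CPM (0.98 ± 0.04, adjusted p = 9.6e-11). The other members above both were PER1 (ENSDARG00000012499) and cry3b, and those below both were cry4, BHLHE40 and rorcb, all named after their values were seen. cry4 held 44.2 to 47.5 CPM in wild-type, 30.6 to 32.6 CPM in heterozygous and 52 to 53.4 CPM in homozygous pools (-0.65 ± 0.05, adjusted p = 2.6e-08). The labels give neither the hour of collection nor the light regime of the pools, so their part in these levels was not tested.

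Of the lists, the proteasome had the largest share of members above both genotypes. It is the protease complex that degrades ubiquitin-tagged proteins. Of 35 subunits tested, 32 lay above the midpoint (91.4%, against 16.7% of all genes) and 0 below. Their median was 0.25 log2 units, and 23 lay above both genotypes (4.3% of all genes did). The median subunit was 0.25 log2 units higher in heterozygous and -0.03 in homozygous against wild-type pools. PSMD12, a subunit of the regulatory lid, held 154, 154 and 161 CPM in wild-type, 204, 201 and 204 CPM in heterozygous and 144, 138 and 142 CPM in homozygous pools. Heterozygous pools were the highest without overlap (0.45 ± 0.04, adjusted p = 8.2e-08). PSMD2, of the regulatory base, has 2 tested IDs, both above both genotypes, of which ENSDARG00000099653 held 152, 153 and 147 CPM, then 202, 203 and 199 CPM, then 152, 149 and 158 CPM, with wild-type and homozygous pools overlapping (0.41 ± 0.04, adjusted p = 3e-07). The 3 subunits that did not pass were PSMC1, PSMC4 and PSMC6, of which PSMC6 held 0.0935 to 2.73 CPM.

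Genes of ribosome assembly, cell division and mitochondrial protein import also lay above the midpoint, by smaller steps. Of 109 ribosome biogenesis genes, a list added after values had been seen, 76 lay above (69.7%, against 16.7% of all genes) and 2 below. The median was 0.23, and 17 lay above both genotypes (4.3% of all genes did). ubtf, a factor of RNA polymerase I, held 185, 188 and 180.4 CPM in wild-type, 273, 272 and 282 CPM in heterozygous and 218, 219 and 222 CPM in homozygous pools (0.45 ± 0.04, adjusted p = 5.2e-08). PPAN, needed to mature the large subunit, held 48.8, 48.8 and 52.2 CPM, then 74.4, 79.2 and 83.8 CPM, then 56, 53.1 and 66.5 CPM (0.55 ± 0.06, adjusted p = 8.9e-06). In both genes heterozygous pools were apart from the other 6. The ribosomal proteins themselves did not share this: of 73 tested 0 lay above the midpoint in edgeR's test and 4 below (5.48%). Their median was -0.06, with 67 deviations negative and 6 positive. Of 47 genes of the cell cycle and DNA replication 27 lay above (57.4%) and 0 below, with a median of 0.19 and 7 above both. PCNA, the clamp of DNA polymerase, held 969, 912 and 923 CPM in wild-type, 1076, 1167 and 1175 CPM in heterozygous and 813, 804 and 877 CPM in homozygous pools (0.37 ± 0.04, adjusted p = 2.7e-06). Of 39 mitochondrial import genes and 68 mitochondrial ribosomal proteins, both lists added after values had been seen, 18 (46.2%) and 24 (35.3%) lay above and 0 below, with 8 and 5 above both genotypes. TIMM10, a carrier of import in the intermembrane space, held 23.5, 25.7 and 28.1 CPM, then 39.1, 42.9 and 45.7 CPM, then 27.7, 24.8 and 31.6 CPM (0.66 ± 0.08, adjusted p = 1.7e-05). Without heterozygous replicate 3 the count for the mitochondrial ribosome fell to 13. Of 61 nuclear genes of oxidative phosphorylation 11 lay above (18%, near the share of all genes) and 1 below (1.64%), and 47 had a positive deviation.

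Among all genes above both genotypes, the 10 farthest from the nearer genotype at a mean of at least 5 CPM included several factors of ribosome assembly and translation. ABCF2 (ENSDARG00000038785), an ATP-binding cassette protein without a membrane domain, held 76.8, 90.2 and 100.4 CPM in wild-type, 169.7, 185 and 195 CPM in heterozygous and 96.6, 98.9 and 124 CPM in homozygous pools (0.91 ± 0.11, adjusted p = 0.00039). DNAJC2, a chaperone that sits on ribosomes, held 40.0, 40.5 and 43.5 CPM, then 64.6, 63.9 and 71 CPM, then 36.9, 38 and 49.5 CPM (0.69 ± 0.08, adjusted p = 7.6e-05). DNAJC21, which helps recycle large-subunit factors, and PDCD2, a chaperone of a small-subunit protein, deviated by 0.64 ± 0.08 and 0.69 ± 0.08 (adjusted p = 1.3e-05 and 5.4e-06). GPAM, the acyltransferase that begins glycerolipid synthesis, held 14.6, 16 and 13.3 CPM in wild-type, 24.2, 24.1 and 24.9 CPM in heterozygous and 11.4, 13.2 and 14.3 CPM in homozygous pools. Heterozygous pools stood apart from the others, and wild-type and homozygous pools overlapped (0.83 ± 0.07, adjusted p = 2.3e-07). G3BP1, the core of stress granules, held 282, 324 and 320.4 CPM, then 475, 506 and 515 CPM, then 308, 299 and 364 CPM (0.66 ± 0.06, adjusted p = 9.3e-06). The others were FNDC1, lonrf1, ints6 (a subunit of the Integrator complex) and SLC16A12 (a monocarboxylate transporter family member), with deviations from 0.71 to 1.02, and in all 10 the heterozygous libraries stood above the other 6 by the rule that chose them.

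Many genes of glucose handling and of the response to insulin lay below both genotypes. Insulin silences FoxO factors, whose targets include G6PC1 and IGFBP1, and glucose inside the cell activates MondoA, whose targets include TXNIP and arrestin-domain genes. Of 61 insulin- and FoxO-regulated genes, a list added after values had been seen, 30 lay below the midpoint (49.2%, against 17% of all genes) and 5 above (8.2%, against 16.7%). Their median was -0.23, and 19 lay below both genotypes (3.08% of all genes did). Of 16 genes of the thioredoxin-interacting and arrestin-domain list, added in the same way, 12 lay below (75%) and 0 above. The median of the 16 was -0.56, and 8 lay below both. Not all of them are TXNIP or arrestin-domain genes. KLF11, MNT, MXD3 and MXD4 were among those below, and mxd1, MLXIP, MLX and mlxipl did not pass. Lists chosen after their members' values were seen give no independent evidence of direction.

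TXNIP, which limits glucose uptake and binds thioredoxin, has 2 tested IDs, both below both genotypes, the second chosen after its values were seen. ENSDARG00000070000 held 39.3, 33.6 and 31.2 CPM in wild-type, 9.08, 7.87 and 6.95 CPM in heterozygous and 22.2, 24.5 and 21.7 CPM in homozygous pools (-1.82 ± 0.09, adjusted p = 5.2e-09). ENSDARG00000036107 held 555, 507 and 521 CPM, then 339.6, 293 and 242 CPM, then 618, 629 and 535 CPM (-0.94 ± 0.11, adjusted p = 0.00056). All heterozygous pools of both IDs lay under the other 6. ARRDC3, an arrestin-domain relative of TXNIP, likewise had both IDs below both: ENSDARG00000036028 held 164, 158 and 168 CPM, then 76.1, 54.9 and 52.8 CPM, then 121, 138 and 109.6 CPM, and ENSDARG00000052690 deviated by -0.93 ± 0.07 (adjusted p = 3.3e-07).

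G6PC1 (ENSDARG00000013721), glucose-6-phosphatase, the last enzyme of glucose release, held 79.8, 77 and 66.8 CPM in wild-type, 16, 13.6 and 11.3 CPM in heterozygous and 31.5, 32.1 and 26 CPM in homozygous pools. Both mutant groups were under wild type, with heterozygous pools lowest (-1.79 ± 0.12, adjusted p = 1e-05). IGFBP1, a binding protein of insulin-like growth factors made in low insulin, held 25.1, 21 and 18.9 CPM, then 10.9, 8.61 and 8.98 CPM, then 52, 56.1 and 46.5 CPM. Here homozygous pools were the highest and heterozygous pools the lowest (-1.81 ± 0.11, adjusted p = 8.3e-07). EIF4EBP3 (ENSDARG00000041607), a repressor of cap-dependent translation, held 82.5, 75.4 and 78.3 CPM, then 42.2, 42.9 and 40.2 CPM, then 70.22, 67.2 and 67.3 CPM (-0.81 ± 0.05, adjusted p = 1.4e-09). PIK3IP1, an inhibitor of PI3 kinase, held 30.0, 25.2 and 23.1 CPM, then 11.8, 12.9 and 12.5 CPM, then 22.3, 23.9 and 21.4 CPM (-0.97 ± 0.08, adjusted p = 9e-08). In glycolysis and gluconeogenesis 18 of 35 lay below (51.4%, against 17% of all genes) and 2 above, with 6 below both (3.08% of all genes were). PFKFB3, which sets the level of the glycolysis activator fructose-2,6-bisphosphate, held 32.9, 28.9 and 22.7 CPM, then 10.3, 10.8 and 11.3 CPM, then 19.3, 20.4 and 18.3 CPM (-1.11 ± 0.10, adjusted p = 2e-06).

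**Figure D4:**
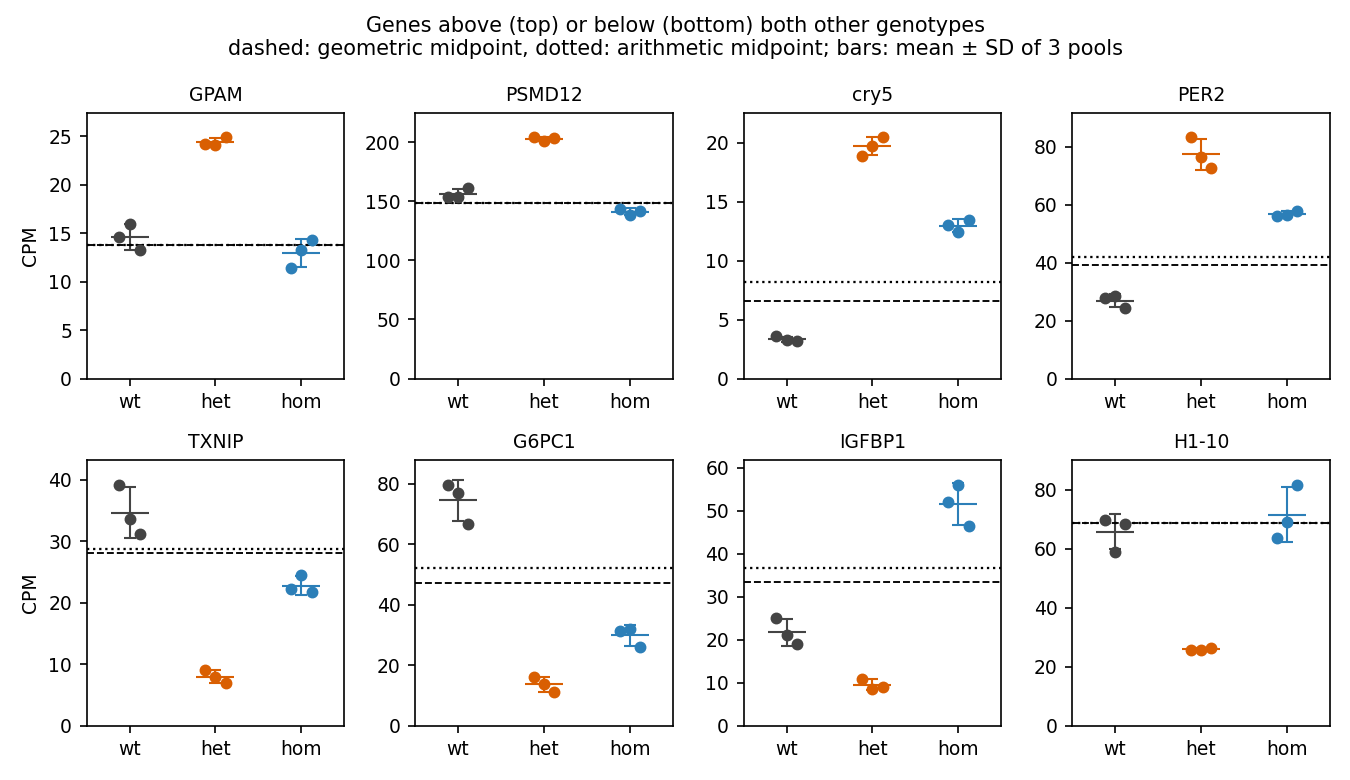
CPM on a linear axis from 0 in wild-type (wt), heterozygous (het) and homozygous (hom) pools, with 1 point per pool and bars for the mean ± SD of 3 pools; dashed and dotted lines are the geometric and arithmetic midpoints. In the top row (GPAM, PSMD12, cry5, PER2) heterozygous pools are the highest, and in the bottom row (TXNIP ENSDARG00000070000, G6PC1 ENSDARG00000013721, IGFBP1, H1-10) the lowest.

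Other genes far below both genotypes had other roles. H1-10, a linker histone, held 69.7, 58.9 and 68.4 CPM in wild-type, 25.7, 25.5 and 26.3 CPM in heterozygous and 63.8, 69.2 and 81.7 CPM in homozygous pools. Wild-type and homozygous pools overlapped, and the deviation was -1.41 ± 0.08 (adjusted p = 4.5e-08). bbc3, the death-promoting BH3 protein Puma, held 9.32, 5.54 and 6.32 CPM, then 2.26, 1.92 and 2.71 CPM, then 8, 9.33 and 7.2 CPM (-1.72 ± 0.18, adjusted p = 2.2e-05). It belongs to the p53 targets, of which 10 of 28 lay below (35.7%, against 17% of all genes), 1 above and 5 below both (3.08% of all genes were). The 1 above was cdkn1a (0.47 ± 0.15, adjusted p = 0.025), and 17 members, mdm2 and CCNG1 among them, did not pass. These 3 were named after their values were seen. c4b, a complement component, held 36.8, 46.7 and 45.7 CPM, then 16.5, 13 and 16.8 CPM, then 65.6, 53.4 and 48.7 CPM (-1.67 ± 0.14, adjusted p = 7.3e-05). he1.3, a hatching enzyme, held 5.8, 5.54 and 6.61 CPM, then 1.95, 2.43 and 2.68 CPM, then 10.9, 8.48 and 12.8 CPM (-1.77 ± 0.14, adjusted p = 2.8e-07). Of 11 hatching gland markers 5 lay below (45.5%) and 1 above (9.09%, against 16.7% of all genes), and he1.3 was the 1 below both. The others below were PRDM1, tfa, XBP1 and tmprss13a. The more abundant hatching enzymes he1.1 and he1.2, at means of 2502 and 537 CPM in wild-type pools, did not pass the midpoint test. They deviated by 0.01 ± 0.03 and -0.07 ± 0.05 (adjusted p = 0.82 and 0.33). These 6 genes were named after their values were seen. TM4SF4, a membrane protein with 4 spans, held 3.57 to 4.48 CPM in wild-type, 1.49 to 1.88 CPM in heterozygous and 9.02 to 14.4 CPM in homozygous pools (-1.99 ± 0.16, adjusted p = 6e-07).

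Markers of other tissues differed in their shares, against 16.7% above and 17% below over all genes. Of 44 skeletal muscle genes 4 lay above (9.09%) and 5 below (11.4%), and of 29 lens genes 0 above and 2 below (6.9%). Notochord and cartilage gave 3 of 32 above (9.38%) and 5 below (15.6%), and pigment cells 5 of 29 above (17.2%) and 3 below (10.3%). Of 26 erythroid genes 0 lay above and 7 below (26.9%). The yolk syncytial layer and liver gave 10 of 38 on either side (26.3% each). More genes lay above than below in periderm, keratinocytes and ionocytes (16 of 51, 31.4%, and 7, 13.7%) and in endothelium (12 of 32, 37.5%, and 6, 18.8%), where the count above fell to 7 without heterozygous replicate 2. Among the muscle genes, ACTA1 (ENSDARG00000055618), an actin of skeletal muscle, was nearer to wild type, with means of 3858 ± 135 CPM (SD, n = 3), 3732 ± 120.5 CPM (SD, n = 3) and 1658 ± 22.5 CPM (SD, n = 3) in wild-type, heterozygous and homozygous pools (0.56 ± 0.03, adjusted p = 2.3e-09). Heat shock genes (12 of 30 above, 7 below), oxidative stress genes (8 of 30 above, 9 below), glucocorticoid response genes (2 of 26 above, 11 below), DNA repair genes linked to light (7 of 19 above, 2 below) and mitochondrially encoded genes (2 of 13 above, 3 below) completed the lists. Where a list had 0 members called on one side, at most 2 of its members lay on that side at an unadjusted p under 0.05, and DESeq2 and limma-voom called at most 1 and 0.

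**Figure D5:**
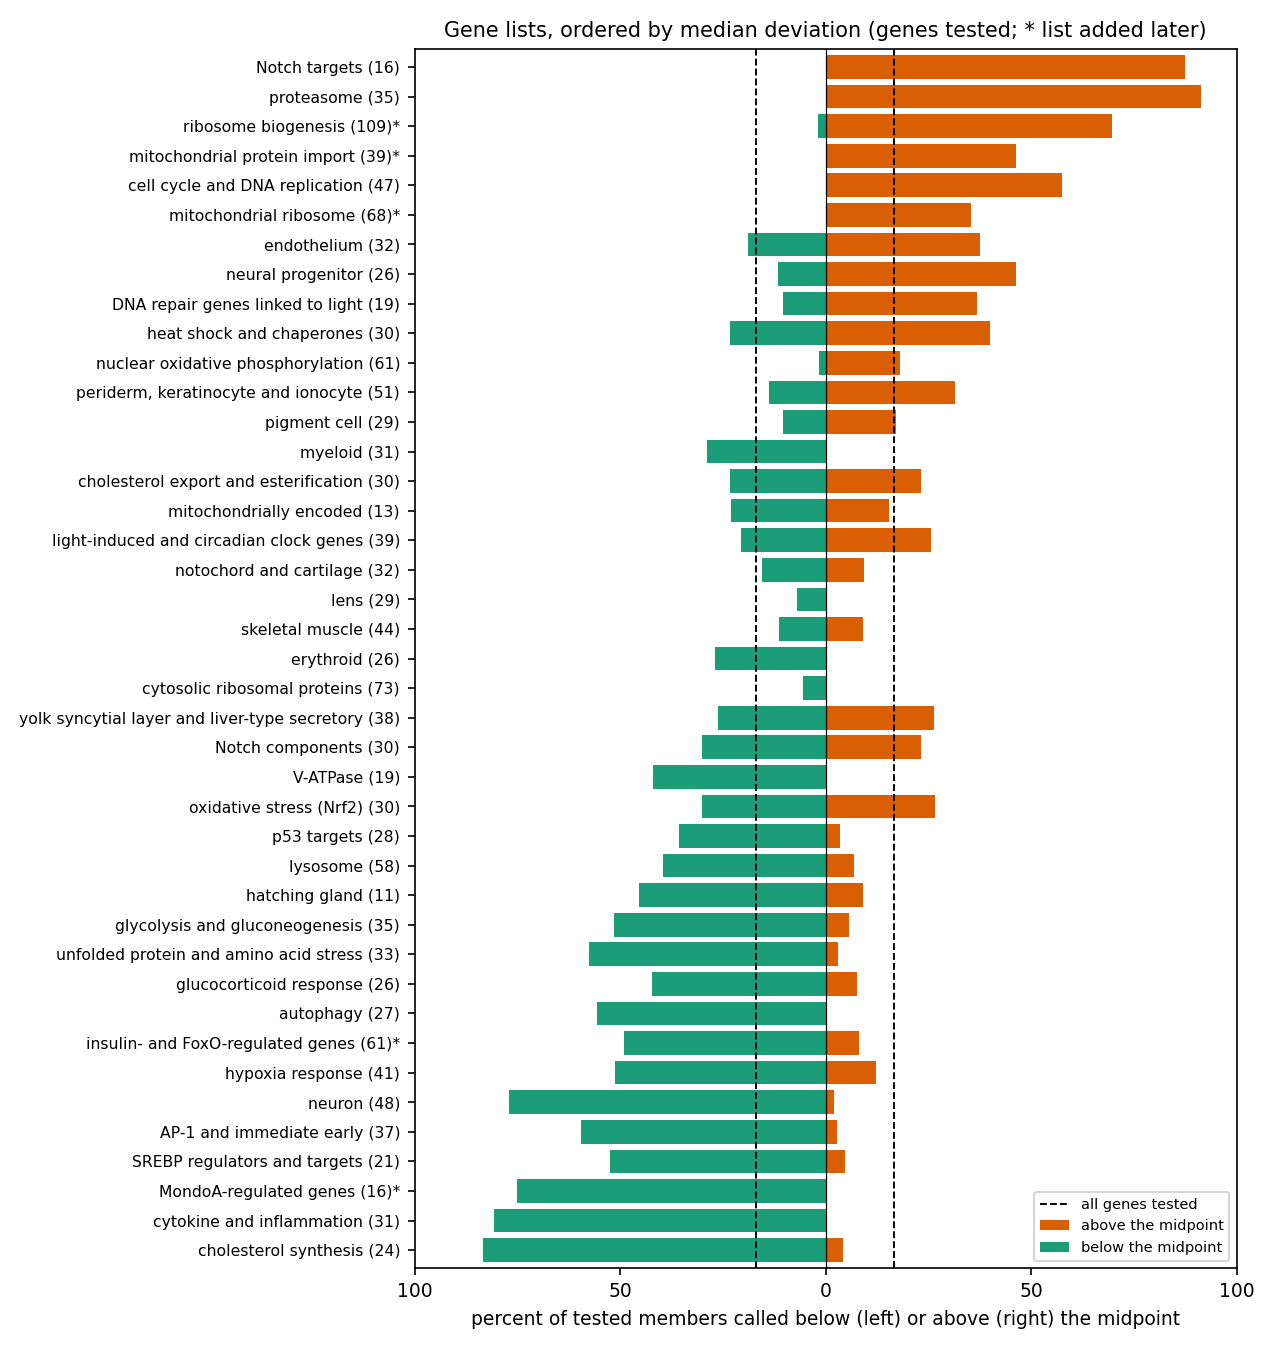
Percent of tested members of each list called above (right) or below (left) the midpoint, with the number tested in brackets and dashed lines at the shares over all genes (16.7% above, 17% below). Notch targets and the proteasome are at the upper end and cholesterol synthesis and cytokines at the lower; starred lists were added after values had been seen.

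The scale on which the line is drawn changed few calls. Against the arithmetic mean of the fitted wild-type and homozygous levels, 6922 genes (34%) were off, 3165 above (15.5%) and 3757 below (18.4%). Both scales called 6615 genes in the same direction and 0 in opposite directions, while 248 were called on the log2 scale alone and 307 on the linear scale alone, and 16 genes had no linear value because a genotype was at 0. The arithmetic mean is never under the geometric one, so levels under the log2 midpoint are under the linear midpoint by construction. The change to the linear scale can thus remove calls above and add calls below. Of the 310 genes nearer to wild type that were lower in homozygous pools, 202 were also above the linear midpoint. NPC2 (ENSDARG00000090912) and SOAT2 were among those that were not.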

How the data were processed

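Raw counts per gene for 9 libraries were deposited by the authors. Per the submitters' processing notes, cutadapt 1.18, HISAT2 2.1.0 and featureCounts 1.6.3 were used with GRCz11; the annotation release, strand setting and counting mode were not given in the sources used here. Overlapping and antisense genes and near-identical copies are therefore uncertain. Symbols came from a table of gene names, which matched 29201 of 32520 IDs; 1806 symbols are carried by more than 1 ID, and IDs are then given.

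Low genes were removed with filterByExpr, leaving 20375, and TMM factors ran from 0.981 to 1.02. One edgeR 4.0.16 quasi-likelihood fit in R 4.3.3 with a coefficient per genotype gave all contrasts, with Benjamini-Hochberg adjustment over all genes tested and a threshold of 0.05. Standard errors are approximate, from the fold change and its F statistic. The test outside both genotypes took the larger of both p-values. The arithmetic midpoint was tested by the delta method on the same fit. Levels are CPM from TMM-scaled library sizes. The scripts were tested on simulated data.

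Named genes were NPC2 and NPC1; at a mean of at least 5 CPM, the 10 per direction farthest outside both genotypes with the heterozygous libraries not overlapping the other 6, and 6 toward each end with the largest deviation; and up to 4 per list by adjusted p. The contrast and lists were chosen with earlier results of these data known. Lists (36, plus 5 added after values were seen) are described by counts and medians without a test. Alternatives were DESeq2 1.42.0, limma-voom (limma 3.58.1), other scalings and filters, a replicate block, halved counts and leaving out each library. Some genes that this rule names are not reported here.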

Additional observations from a re-analysis of the deposited data

How the results depend on the processing

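No midpoint call changed sign under any of 17 alternatives. DESeq2, limma-voom, RLE and upper-quartile scaling, both other filters, the replicate block and halved counts (most counts of 1 to 19 were even, 96.3% to 97.5% per library) kept 96.1% to 99.8% of the midpoint calls. Under these settings the median shift of the deviation per gene was at most 0.0049 log2 units in size. With 1 library left out it was at most 0.0086. Leaving out 1 library kept 74.5% to 94.5% of the midpoint calls, fewest without heterozygous replicate 2. Of the calls outside both genotypes it kept 61.7% to 89.7%, again fewest without heterozygous replicate 2. Over these omissions the counts ran from 2575 to 3549 above the midpoint, 2671 to 3576 below it, 549 to 916 above both genotypes, 415 to 677 below both, 521 to 779 toward wild type and 143 to 310 toward homozygous, and from 5287 to 7026 off the linear midpoint. Homozygous against wild type ran from 7783 to 9263, heterozygous against wild type from 4835 to 6277 and homozygous against heterozygous from 6776 to 8482. The lowest counts above both came without heterozygous replicate 2 (549) and homozygous replicate 1 (566), that below both without heterozygous replicate 2 (415), and those toward homozygous without heterozygous replicates 1 (167) and 2 (143); fewer samples entered these fits. NPC2 (ENSDARG00000096979) ran from -0.46 to 0.13 against -0.11 with all libraries, turning its sign without heterozygous replicate 3 (adjusted p = 0.69), and NPC2 (ENSDARG00000090912) turned from 0.54 to -0.072 on the linear scale (adjusted p = 0.58), neither passing. Deviations of same-numbered libraries correlated weakly, at -0.0242 to 0.0848 over 9 pairs. Between heterozygous and homozygous libraries, whose embryos were siblings whatever the number, same-numbered pairs gave 0.0565, 0.0565 and 0.0848. Differently numbered libraries of these genotypes gave lower values, -0.0764 to 0.0267. Deviations from a group mean balance out, so higher values in some pairs bring lower ones in others, and this difference gives no separate support. Whether same-numbered libraries shared a cross or a batch was not tested. With a replicate block 3421 genes lay above and 3469 below the midpoint, 923 above and 648 below both genotypes, 776 toward wild type and 274 toward homozygous.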

Other observations

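A lysosomal protease outside the naming rule, CTSB (ENSDARG00000055120), was chosen after its values were seen. It held 463, 451 and 467 CPM in wild-type, 251, 263 and 243 CPM in heterozygous and 9.72, 10.3 and 39 CPM in homozygous pools. The genotypes were apart, with a fitted position near the arithmetic mean: the deviation was 1.43 ± 0.41 from the log2 midpoint (adjusted p = 0.039, edgeR) and 0.08 from the linear one (adjusted p = 0.93). Homozygous replicate 3 was the highest of its group for CTSB, for NPC2 (ENSDARG00000090912) and for SOAT2. Without this library the deviations from the log2 midpoint were 1.89 ± 0.04 for CTSB, 0.60 ± 0.04 for NPC2 and 3.05 ± 0.14 for SOAT2 (adjusted p = 7.3e-14, 3e-08 and 2.7e-09, edgeR). Leaving out the highest homozygous pool raises these deviations by construction, so their direction and p-values give no separate support. The setting was chosen for CTSB after seeing the data.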
